A study of Rattus norvegicus with 9 samples.

Results

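Cytochrome P450 genes of families 1 to 4 were examined in regrowing livers of female F344 rats, on 9 whole-transcript Affymetrix arrays made from laser-microdissected cells. The genes were all those whose symbol in the array annotation starts with Cyp, a family number from 1 to 4 and a letter. Cyp1a1, Cyp1a2, Cyp1b1, Cyp2e1 and every Cyp2b and Cyp4a gene were set aside, which left no member of family 1. The choice gave 42 genes of the 18166 named on the array, and 12 P450 genes were set aside. Of the 42 genes, 39 passed the filter on dim signals, and Cyp2ac1, Cyp2j16 and Cyp4f40 did not.

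Apart from transplantation, all livers had been treated in the same way. Retrorsine, an alkaloid of plants that blocks the division of hepatocytes, was injected 2 times at 30 mg/kg with 2 weeks between, and part of the liver was removed 4 weeks later. Under this treatment clusters of small, hepatocyte-like progenitor cells, called SHPCs, rebuild the liver. The 3 groups had 3 arrays each: SHPCs of livers that had received Thy1+ donor cells through the spleen, SHPCs of livers without transplantation, and hepatocytes lying beside the SHPCs in livers without transplantation. The donor cells were DPPIV-positive and the hosts DPPIV-negative, and clusters were recognised by eye on hematoxylin-stained sections of 7 µm. The groups were taken from the cell type labels. For the hepatocyte arrays another label speaks of SHPCs with transplantation, in conflict with their cell type and titles. The sources used here give neither the number of animals nor which arrays share one. The p-values therefore measure only the spread between arrays, and they are too small if arrays of the same group share an animal. Where arrays of compared groups share an animal, p-values of a fit that ignores this can instead be too large.

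Cytochrome P450 enzymes are heme proteins of the endoplasmic reticulum that insert oxygen into steroids, fatty acids, vitamins, bile acids, drugs and toxins. Electrons reach them from P450 oxidoreductase and cytochrome b5. In the liver they are made mainly by hepatocytes, under the control of nuclear receptors such as PXR and CAR. In adult rats the pattern of growth hormone release sets several of them at very different levels in males and females, through the factor STAT5b. Retrorsine itself becomes toxic to hepatocytes after oxidation by P450 enzymes.

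Levels are given as log2 of the normalized intensity, a scale on which 1 unit is a factor of 2 in intensity. Values of different genes come from different probes, so differences are computed only within a gene. Where genes are called strong, highest, low or dim, this describes their signals and does not measure their relative amounts of RNA. The 25th percentile of an array lay between 2.85 and 3.14, and values near it are close to the dim end of the scale. Array 2 of the SHPC group and array 2 of the hepatocyte group differed from the remaining 7. They lay at 54.1 and 42.2 on a first principal component with 54.4% of the variance, against −22.8 to 2.30 for the others. Array 2 was also the lowest SHPC array for 25 of the 39 genes (64.1%, against 45.8% of all genes), and the lowest hepatocyte array for 25 of 39 (64.1%, against 41.2%). The 3 arrays of SHPCs with Thy1+ cells lay closer together. The median SD over the 39 genes was 0.101 in SHPCs of transplanted livers, 0.319 in SHPCs without transplantation and 0.367 in hepatocytes, and over all genes it was 0.110, 0.252 and 0.226. Markers of hepatocytes were strong everywhere. The mean log2 level of the 6 tested of 8 (albumin and others) lay between 11.98 and 12.03 on the arrays of transplanted livers, 11.72 and 11.97 on the SHPC arrays, and 11.74 and 11.92 on the hepatocyte arrays.

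Of the genes that are sex-biased in adult rats, female-predominant Cyp2c12 and Cyp2a1 gave strong signals in every group, and male-predominant Cyp2c11 gave a dim one. Cyp2c12, the female-predominant steroid sulfate hydroxylase, had 12.19, 12.18 and 12.25 in SHPCs of transplanted livers, 12.06, 11.81 and 12.05 in SHPCs without transplantation and 12.27, 12.16 and 12.22 in hepatocytes. Its lowest and highest arrays were 1.38-fold apart. Cyp2c11, the main testosterone hydroxylase of male rat liver, had 2.71, 3.01 and 2.90 in SHPCs of transplanted livers, 2.98, 2.91 and 3.16 in SHPCs without transplantation and 3.24, 3.19 and 3.21 in hepatocytes. It was thus close to the 25th percentile on every array, and its differences are differences between dim values. Cyp2a1, a female-predominant testosterone 7α-hydroxylase, had 11.35, 11.10 and 11.15 in SHPCs of transplanted livers, 11.06, 10.51 and 11.06 in SHPCs without transplantation, and 11.39, 10.89 and 11.37 in hepatocytes.

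**Figure D1:**
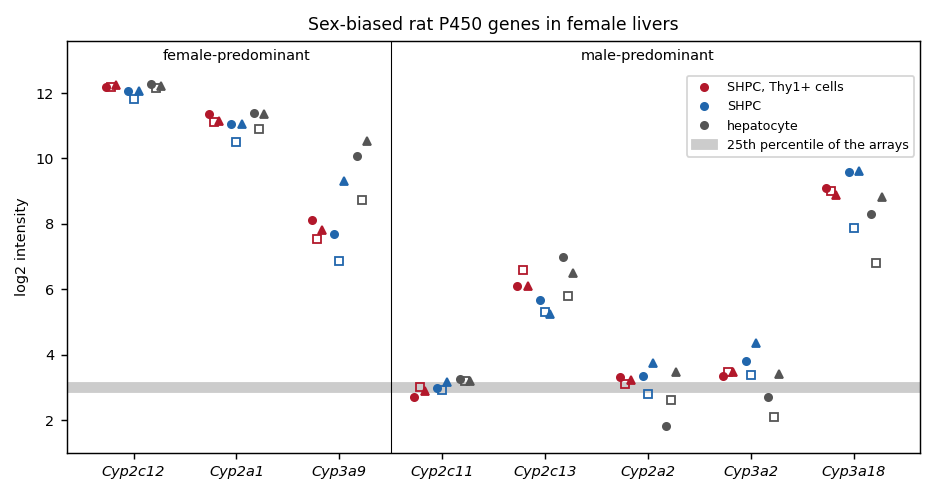
Log2 intensity of 8 P450 genes that are sex-biased in adult rat liver, with 1 symbol per array (circle, open square and triangle for arrays 1, 2 and 3) and a grey band for the range of the arrays' 25th percentiles. Female-predominant Cyp2c12 and Cyp2a1 lie above 10 on all 9 arrays, and male-predominant Cyp2c11 lies in or near the band. Male-predominant Cyp2a2 (1.82 to 3.73) and Cyp3a2 (2.10 to 4.35) reach from below the band to above it. Male-predominant Cyp3a18 and Cyp2c13 lie well above it.

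The other male-predominant genes did not all share the low level of Cyp2c11. Cyp2a2, a testosterone 15α-hydroxylase, was dim, at 3.31, 3.11 and 3.23 in SHPCs of transplanted livers, 3.34, 2.80 and 3.73 in SHPCs without transplantation and 1.82, 2.60 and 3.47 in hepatocytes. Cyp3a18 and Cyp2c13 lay above the 25th percentile on all 9 arrays. Cyp3a18 ranged over 7.04-fold between its lowest and highest arrays, and Cyp2c13 over 3.38-fold. Female-predominant Cyp3a9 ranged over 12.8-fold, the widest range of the 42 genes. No probe set of the array annotation carried the single name Cyp2c7, another female-predominant gene, which was not analysed here. Members of the Cyp2a, Cyp2c, Cyp2d and Cyp3a subfamilies are close in sequence, and a probe set may read some RNA of a neighbour.

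Of the remaining genes with the highest signals, Cyp2c6v1, a constitutive enzyme of both sexes, lay between 12.33 and 12.94 over the 9 arrays, and Cyp2c23, an arachidonic acid epoxygenase, between 11.09 and 11.98. Cyp2c22 and Cyp3a23-3a1, also among the strongest, ranged over 3.23-fold and 2.61-fold. The 4 Cyp2d genes, relatives of the human drug-metabolising CYP2D6, ranged over 1.24-fold (Cyp2d4) to 2.06-fold (Cyp2d5). Some genes known mainly from other organs were low in every group. Cyp2g1 of the olfactory mucosa lay between 3.38 and 3.82, Cyp4x1 of the brain between 3.57 and 4.00, and Cyp2w1 of the fetal gut between 4.01 and 5.31. The dim genes Cyp2ac1 and Cyp2j16 stood at or below the 25th percentile on all 9 arrays, and Cyp4f40 on 7 of 9.

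**Figure D2:**
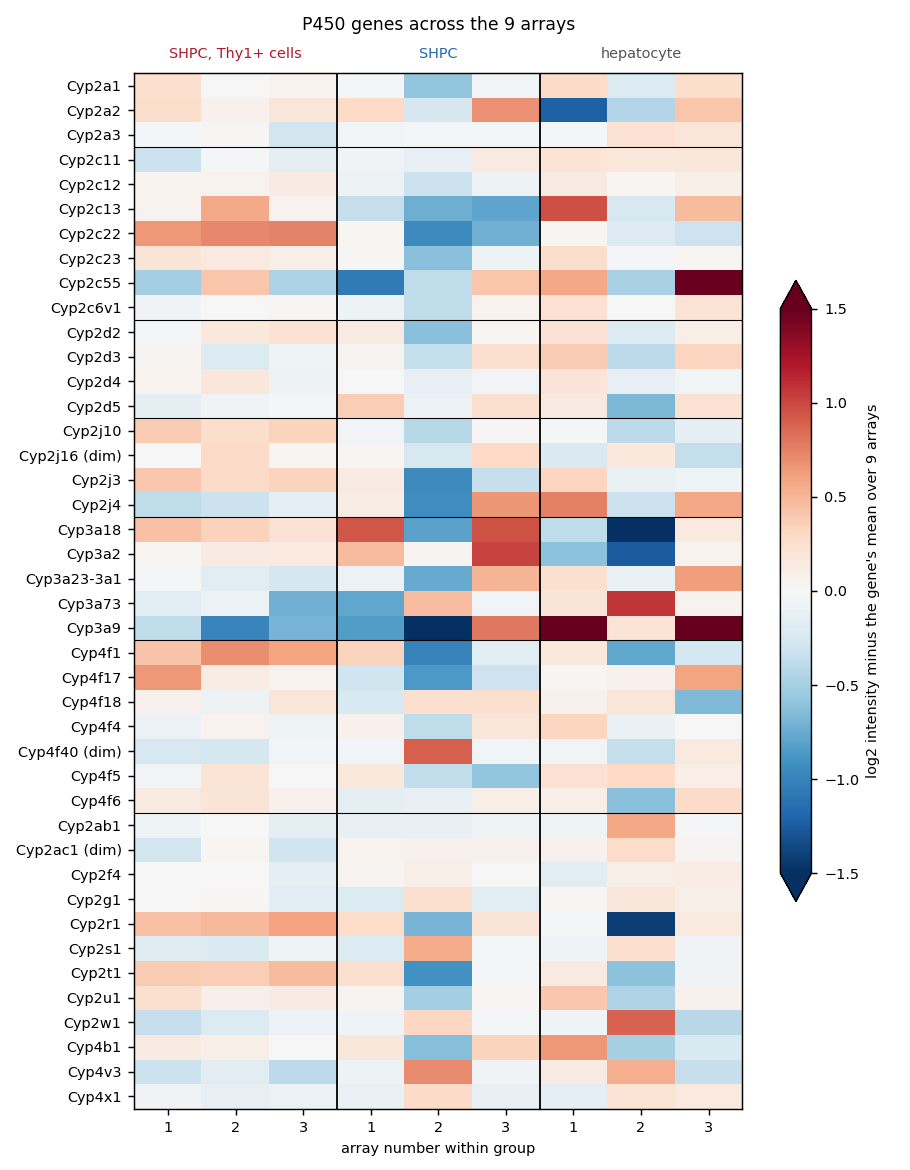
Each row is 1 of the 42 P450 genes and each column 1 of the 9 arrays. Colour gives the log2 intensity minus the gene's mean over the 9 arrays, with darker ends beyond ±1.5. Array 2 of the SHPC group and array 2 of the hepatocyte group hold many of the darkest blue cells, and Cyp2c22 is red on all 3 arrays of transplanted livers.

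With Thy1+ cells, SHPCs had higher values of a set of genes led by Cyp2c22 than SHPCs without them, but no single gene passed the test over all genes. Groups that did not overlap were seen for 14 of 39 genes (35.9%), 12 higher and 2 lower with Thy1+ cells. The 12 were 4 of 7 Cyp2c genes, 2 of 3 Cyp2j, 2 of 6 Cyp4f, Cyp2a1, Cyp2r1, Cyp2t1 and Cyp2u1. All 5 Cyp3a genes had overlapping groups and differences between −0.41 and −0.03, which depended on single arrays. Without SHPC array 3, 3 of the 5 were on the higher side (median 0.27). Without SHPC array 2, 1 of the 5 was (median −0.61), and 2 lay wholly lower. Over the 39 genes, leaving out SHPC array 2 set the groups of 13 genes apart on the higher side (15.2% of all genes) and those of 10 on the lower (11.5%).

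By limma with Benjamini-Hochberg adjustment over 15793 genes, 0 of 39 genes were past 0.05, against 0.00633% of all genes. At an unadjusted limma p under 0.05 there were 7 of 39 (17.9%), all higher with Thy1+ cells, against 7.35% of all genes in either direction, 5.07% higher and 2.29% lower. Of all genes, 15.8% had groups that did not overlap, 10.6% higher and 5.23% lower. With 3 arrays a group an exact permutation test of a single gene cannot go below p = 0.1. The median difference of the 39 genes was 0.02, and that of all genes tested 0.02. Over the 39 genes, 21 were on the higher side and 18 on the lower, against 53% and 47% of all genes.

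Cyp2c22, which hydroxylates retinoic acid in the rat, had 11.74, 11.81 and 11.83 in SHPCs of transplanted livers and 11.12, 10.14 and 10.37 in SHPCs without transplantation. All 3 arrays with Thy1+ cells were above every other array of the study. The difference was 1.25 ± 0.23 (SE), 2.38-fold, with a limma adjusted p of 0.162. Without SHPC array 1 the difference was 1.54 and the limma adjusted p was 0.0103. With the replicate number as a block it was 0.0359, although the numbers did not pair these groups. Cyp2c22 passed under only 3 of 20 alternative settings. Over these the difference lay between 0.996 and 1.54 and the limma adjusted p between 0.00907 and 0.647. Over the 9 arrays, the genes with the pattern most like it were C1s (Pearson r = 0.974), Acsl3 (0.969) and Tkt (0.964), as a description that shares the spread of SHPC array 2 and hepatocyte array 2.

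Other Cyp2c genes differed less. Cyp2c13, a male-predominant steroid hydroxylase, had 6.09, 6.60 and 6.09 with Thy1+ cells and 5.67, 5.29 and 5.24 without, a difference of 0.86 ± 0.28 (limma adjusted p = 0.514). Cyp2c23 differed by 0.37 ± 0.18 and Cyp2c12 by 0.23 ± 0.12, both with groups that did not overlap. These differences were 0.17 and 0.15 without SHPC array 2. The median over the 7 Cyp2c genes was 0.23, and 6 of them were on the higher side.

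Among the Cyp2j genes, which turn arachidonic acid into epoxides, Cyp2j3 had 8.71, 8.60 and 8.64 with Thy1+ cells and 8.43, 7.35 and 7.97 without. Cyp2j10 had 4.30, 4.19 and 4.26 with Thy1+ cells and 3.89, 3.51 and 3.95 without. Neither gene's groups overlapped, and the differences were 0.73 ± 0.24 and 0.47 ± 0.16 (limma adjusted p = 0.508 and 0.515). The difference of Cyp2j3 was 0.45 without SHPC array 2. The intestinal and hepatic form Cyp2j4 differed by −0.23 ± 0.39, with overlapping groups, and by −0.67, −0.15 and 0.13 without SHPC arrays 2, 1 and 3 in turn.

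In the Cyp4f subfamily, whose enzymes hydroxylate leukotriene B4 and long fatty acids at their end, 5 of 6 tested genes were on the higher side with Thy1+ cells. Cyp4f1 had 9.86, 10.14 and 10.02 with Thy1+ cells and 9.76, 8.44 and 9.28 without (0.85 ± 0.33, limma adjusted p = 0.632). Cyp4f17 had 4.47, 3.93 and 3.88 with Thy1+ cells and 3.52, 2.97 and 3.51 without (0.76 ± 0.23, limma adjusted p = 0.465). SHPC array 2 was below its 25th percentile for Cyp4f17, so this difference involves dim values. It lay between 0.57 and 0.88 over 19 alternative settings. The lowest Cyp4f1 array with Thy1+ cells was close to SHPC array 1, and SHPC arrays 2 and 3 lay farther below. The difference of Cyp4f1 was 0.49 without SHPC array 2. Cyp4f4 stood at 8.19 to 8.32 with Thy1+ cells and 7.88 to 8.44 without.

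Outside these subfamilies, Cyp2t1 differed by 0.64 ± 0.29 and Cyp2r1, a vitamin D 25-hydroxylase, by 0.59 ± 0.39, with groups that did not overlap. They differed by 0.30 and 0.28 without SHPC array 2. Cyp4v3, a fatty acid hydroxylase, was lower with Thy1+ cells, at 6.68, 6.84 and 6.62 against 6.93, 7.71 and 6.95 (−0.49 ± 0.26, limma adjusted p = 0.706). Cyp2w1 was the other gene whose arrays lay wholly lower with Thy1+ cells, by −0.29 ± 0.28. Cyp2s1, a mainly extrahepatic enzyme, differed by −0.27 ± 0.20, with overlapping groups. Without SHPC array 2 the differences of Cyp4v3, Cyp2w1 and Cyp2s1 were −0.23, −0.17 and −0.04, and without SHPC array 1 that of Cyp2s1 was −0.42.

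**Figure D3:**
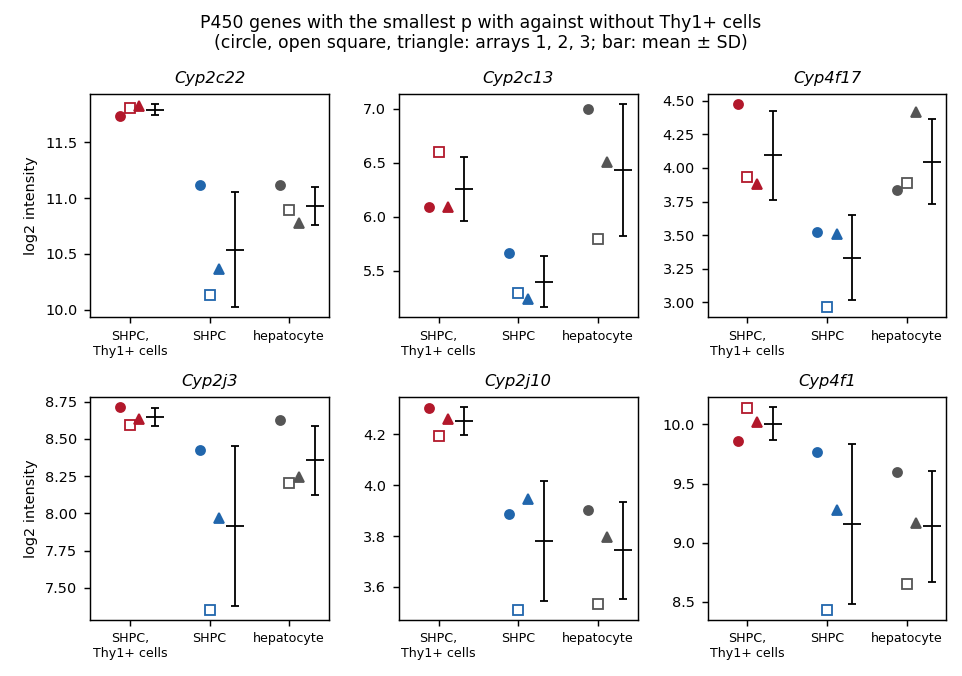
Log2 intensity on each array for the 6 genes with the smallest unadjusted limma p between SHPCs with and without Thy1+ cells (circle, open square and triangle for arrays 1, 2 and 3, bar for mean ± SD, n = 3). In each panel the 3 arrays with Thy1+ cells lie above the 3 SHPC arrays. For Cyp2c22, Cyp2j10 and Cyp4f1 they lie above the hepatocyte arrays too.

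Markers of other liver cells also differed between these groups. All 8 Kupffer cell and macrophage markers were on the higher side with Thy1+ cells (median 0.55), and so were all 8 stellate cell and fibroblast markers (median 0.27), with 0 of them past the limma threshold. These were 8 of 8 (median 0.28) and 7 of 8 (median 0.17) without SHPC array 2. The summed intensity of the Kupffer list was 2118 to 2606 on the arrays with Thy1+ cells, 1250 to 1821 on the SHPC arrays and 1636 to 2059 on the hepatocyte arrays. That of the stellate list was 880 to 1078 with Thy1+ cells, 559 to 871 in SHPCs and 654 to 1007 in hepatocytes. The hepatocyte markers were also on the higher side, 6 of 6, with a median of 0.11, and 4 of 6 without SHPC array 2 (median 0.03). Of the other lists, endothelium had 4 of 4 markers on the higher side (median 0.25), cholangiocytes 3 of 6 (0.03), T and NK cells 1 of 4 (−0.02), B cells 0 of 3 (−0.26), neutrophils 0 of 4 (−0.20) and erythroid cells 1 of 1. In microdissected tissue, fewer cells of a type and less RNA per cell cannot be told apart, and the part of these markers in the P450 differences was not tested.

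SHPCs set against the hepatocytes beside them differed in opposite directions within the Cyp3a subfamily. Female-predominant Cyp3a9 was lower in SHPCs, with a difference of −1.82 on the log2 scale, while male-predominant Cyp3a18 and Cyp3a2 were higher by 1.06 and 1.11. All 7 Cyp2c genes were on the lower side in SHPCs, with differences between −1.03 and −0.20 and a median of −0.31. They included male-predominant Cyp2c13 and Cyp2c11 as well as female-predominant Cyp2c12. In all, 27 of 39 genes were on the lower side and 12 on the higher, against 51.4% and 48.6% of all genes. The higher side held 17 of 39 without SHPC array 2. The 7 Cyp2c genes stayed on the lower side without any 1 of the 6 arrays.

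In the fit without pairs, 0 of 39 genes passed limma's adjusted threshold, against 0.0633% of all genes. At an unadjusted limma p under 0.05 there were 5 of 39 (12.8%), against 4.12% of all genes, 2.31% higher and 1.81% lower. Of these Cyp3a2 was higher in SHPCs, and Cyp2c13, Cyp3a9, Cyp4f17 and Cyp4f5 were lower. Groups did not overlap for 5 of 39 genes, all lower in SHPCs, against 5.22% of all genes, 2.72% higher and 2.49% lower. They were Cyp2a3, Cyp2c11, Cyp2c12, Cyp2c13 and Cyp4f17. For Cyp2a3 and Cyp2c11 the groups nearly met at low levels. The highest SHPC array was at 3.58 and 3.16, and the lowest hepatocyte array at 3.59 and 3.19. The counts without overlap were 4 higher and 7 lower without SHPC array 2 (10.8% and 8.21% of all genes), and 0 higher and 13 lower without hepatocyte array 2 (6.7% and 8.02%). The median difference of the 39 genes was −0.13, against −0.01 over all genes.

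SHPC and hepatocyte arrays of the same number deviated together from their group means (r = 0.526, 0.705 and 0.341 over all genes for numbers 1, 2 and 3), so a fit with the number as a block was also made. Arrays of different numbers correlated too, at 0.480 for SHPC array 3 with hepatocyte array 1 and 0.237 for SHPC array 1 with hepatocyte array 3. The pairs of either array 2 with an array of another number lay between −0.606 and −0.346. With number 2 left out, the difference between arrays 1 and 3 correlated at only 0.0978 between SHPCs and hepatocytes. No label gives a pairing, so arrays of equal number are only assumed to be pairs here and below. In the block fit of these 2 groups alone, 3 of 39 genes passed, against 0.481% of all genes, and all 3 were Cyp3a genes. Cyp3a2 (limma adjusted p = 0.0171) and Cyp3a18 (0.0260) rose in SHPCs, and Cyp3a9 (0.0151) fell. Leaving out any 1 number leaves 2 pairs and 1 residual degree of freedom, and 0 of 39 genes then passed. In that order of genes, the limma adjusted p-values were 0.166, 0.271 and 0.129 without number 1, 0.406, 0.509 and 0.535 without number 2, and 0.189, 0.189 and 0.117 without number 3. The differences kept their directions, at 1.02 to 1.19 for Cyp3a2, 0.93 to 1.18 for Cyp3a18 and −2.12 to −1.54 for Cyp3a9. With the block in a fit of all 9 arrays, 0 members passed.

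Cyp3a9 had 7.68, 6.87 and 9.31 in SHPCs without transplantation and 10.06, 8.72 and 10.54 in hepatocytes. The groups overlapped, since SHPC array 3 was above hepatocyte array 2, but each SHPC array was below the hepatocyte array of its number, by −2.38, −1.86 and −1.23. Without pairs the difference was −1.82 ± 0.59 (SE), 3.53-fold, at a limma adjusted p of 0.768.

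Cyp3a18, a steroid hydroxylase, had 9.59, 7.87 and 9.62 in SHPCs and 8.29, 6.81 and 8.82 in hepatocytes. The SHPC array was the higher of each pair, by 1.30, 1.06 and 0.80, and the unpaired groups overlapped. Without pairs its difference was 1.64 without SHPC array 2 and 0.47 without hepatocyte array 2. Cyp3a2, a testosterone 6β-hydroxylase, had 3.81, 3.38 and 4.35 in SHPCs and 2.72, 2.10 and 3.40 in hepatocytes, with pair differences of 1.09, 1.28 and 0.96. Of the hepatocyte arrays, 2 were at or below their 25th percentile for Cyp3a2, so its fold depends on dim values.

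Of the other Cyp3a genes, the glucocorticoid-inducible Cyp3a23-3a1 had 11.17, 10.51 and 11.77 in SHPCs and 11.49, 11.15 and 11.89 in hepatocytes. It was lower in the SHPC array of each pair, by −0.32, −0.65 and −0.12, and did not pass with or without the block. Cyp3a73 had 4.69, 5.93 and 5.43 in SHPCs and 5.66, 6.54 and 5.53 in hepatocytes. Over the 9 arrays Cyp3a18 and Cyp3a2 varied together (r = 0.88), and so did Cyp3a9 and Cyp3a23-3a1 (r = 0.89). Cyp3a9 and Cyp3a18 did not (r = −0.00). These values describe 9 arrays that share the spread of number 2.

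Markers of other cells differed here too. Of the Kupffer cell and macrophage markers 1 of 8 was on the higher side in SHPCs (median −0.30), of the stellate cell and fibroblast markers 2 of 8 (−0.04), of the endothelial markers 0 of 4 (−0.15) and of the cholangiocyte markers 6 of 6 (0.15). The hepatocyte list had 5 of 6 (0.04), the T and NK cell list 3 of 4 (0.18), the B cell list 2 of 3 (0.06), the neutrophil list 1 of 4 (−0.04) and the erythroid list 1 of 1. Without SHPC array 2 the Kupffer list had 4 of 8 on the higher side (−0.02), the stellate list 5 of 8 (0.07) and the endothelial list 3 of 4 (0.03). Their part in the P450 differences was not tested.

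**Figure D4:**
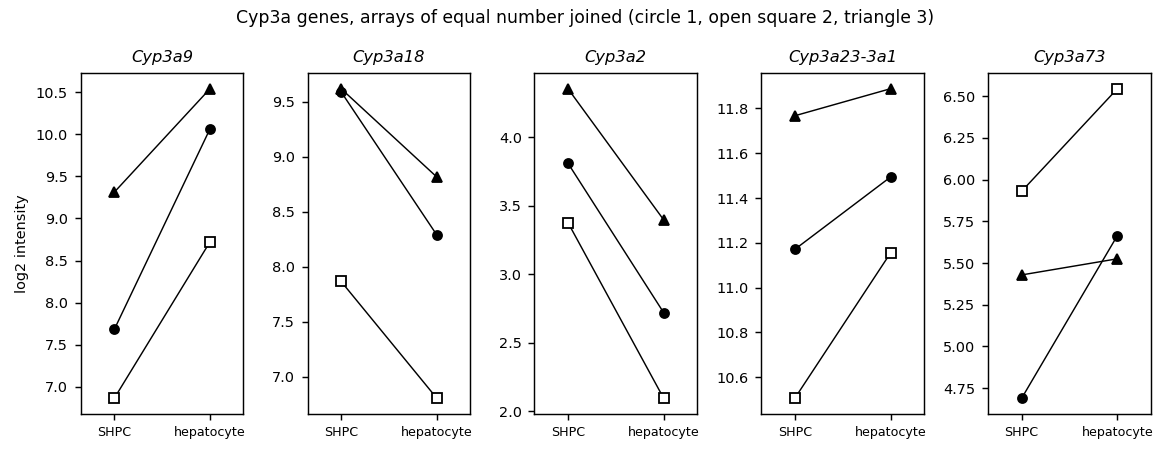
Log2 intensity of the 5 Cyp3a genes in SHPCs without transplantation and in hepatocytes, with arrays of the same number joined by a line (circle, open square and triangle for numbers 1, 2 and 3). The lines slope up toward hepatocytes for Cyp3a9, Cyp3a23-3a1 and Cyp3a73 and down for Cyp3a18 and Cyp3a2.

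Promoter sequences follow for the 4 Cyp3a genes with the lowest p or the highest signal. PXR and CAR act on rodent Cyp3a genes through repeats of the hexamer AGTTCA. The sequences are RefSeq's for assembly GRCr8, from 250 bases before to 50 after the gene's start, printed 5′ to 3′ on the gene's strand. AGTTCA, or TGAACT on the other strand, is in capitals. Cyp3a18 lies at chr12:13994062-13994361 (+), Cyp3a2 at chr12:14343808-14344107 (−), Cyp3a23-3a1 at chr12:14398754-14399053 (−) and Cyp3a9 at chr12:21960111-21960410 (−).
Cyp3a18: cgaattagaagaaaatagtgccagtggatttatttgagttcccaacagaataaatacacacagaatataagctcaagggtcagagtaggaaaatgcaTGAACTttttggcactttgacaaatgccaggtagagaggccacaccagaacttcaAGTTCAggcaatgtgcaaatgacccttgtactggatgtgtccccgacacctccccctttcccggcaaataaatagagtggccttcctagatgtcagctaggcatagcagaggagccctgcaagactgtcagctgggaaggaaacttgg
Cyp3a2: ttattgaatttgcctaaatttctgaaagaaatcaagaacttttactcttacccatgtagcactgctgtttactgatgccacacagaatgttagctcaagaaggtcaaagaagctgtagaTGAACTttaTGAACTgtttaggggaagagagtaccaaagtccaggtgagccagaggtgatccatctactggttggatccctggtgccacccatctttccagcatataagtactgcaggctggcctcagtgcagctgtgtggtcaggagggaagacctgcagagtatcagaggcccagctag
Cyp3a23-3a1: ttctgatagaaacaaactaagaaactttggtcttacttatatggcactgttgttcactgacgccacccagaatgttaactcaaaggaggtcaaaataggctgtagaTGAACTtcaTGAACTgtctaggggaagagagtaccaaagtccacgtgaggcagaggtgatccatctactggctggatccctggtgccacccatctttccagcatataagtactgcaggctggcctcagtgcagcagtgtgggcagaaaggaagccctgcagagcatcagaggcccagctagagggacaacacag
Cyp3a9: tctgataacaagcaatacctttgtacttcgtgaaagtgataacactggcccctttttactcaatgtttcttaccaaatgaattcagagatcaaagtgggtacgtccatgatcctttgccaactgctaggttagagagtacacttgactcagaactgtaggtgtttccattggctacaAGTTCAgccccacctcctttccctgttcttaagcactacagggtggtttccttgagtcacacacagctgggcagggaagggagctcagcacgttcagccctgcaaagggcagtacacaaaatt

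Cyp3a2 and Cyp3a23-3a1 each held a pair of these hexamers 3 bases apart (AGTTCANNNAGTTCA, read on the other strand). Their first bases lay at −131 and −122 from the gene's start in Cyp3a2 and at −144 and −135 in Cyp3a23-3a1. Of 27457 rat promoters of this length, 2 held this direct repeat (0.00728%), namely these 2. Cyp3a18 held 2 separate hexamers, at −153 and −98, and Cyp3a9 held 1, at −73. The hexamer was found in 3966 promoters (14.4%) and in 11 of the 35 chosen P450 genes with a promoter in the table. Of the genes with this repeat, Cyp3a2 was on the higher side in SHPCs and Cyp3a23-3a1 on the lower, both with overlapping groups. Only exact matches in this window were sought, and looser or more distant elements were not looked for. Any part of these hexamers in the Cyp3a differences was not tested. The STAT5 pattern TTCNNNGAA, found in 8.68% of all promoters, was in 4 of the 35: Cyp2j4, Cyp2t1, Cyp3a73 and Cyp4f40.

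In the Cyp2c subfamily, Cyp2c13 had 5.67, 5.29 and 5.24 in SHPCs and 7.00, 5.79 and 6.50 in hepatocytes, without overlap. The difference was −1.03 ± 0.28, 2.04-fold, with a limma adjusted p of 0.567. Cyp2c55, a gene known from mouse gut, varied widely, at 2.53, 3.21 and 4.01 in SHPCs and 4.17, 3.10 and 5.08 in hepatocytes. For Cyp2c12 the difference was −0.24 ± 0.12, smaller but again without overlap. It was −0.16 without SHPC array 2. Cyp2c22 differed by −0.39 ± 0.23, and its groups overlapped. Without SHPC array 2 it differed by −0.19 and without SHPC array 1 by −0.68.

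Among the Cyp4f genes, Cyp4f17 had 3.52, 2.97 and 3.51 in SHPCs and 3.84, 3.89 and 4.41 in hepatocytes (−0.71 ± 0.23, limma adjusted p = 0.768). Its SHPC array 2 was below the 25th percentile, so this difference too involves dim values. Cyp4f5 had 5.27, 4.75 and 4.53 in SHPCs and 5.34, 5.42 and 5.22 in hepatocytes (−0.48 ± 0.19), and its groups overlapped by SHPC array 1. Without SHPC array 3 the difference of Cyp4f5 was −0.31. Cyp4f1 differed by 0.02 ± 0.33, and by −0.28 to 0.38 without 1 array. Of the remaining genes, dim Cyp2a2 differed by 0.66 ± 0.37 and Cyp2d5 by 0.28 ± 0.23, each with overlapping groups. Without 1 array the difference of Cyp2a2 ran from 0.25 (without hepatocyte array 1) to 1.08 (without hepatocyte array 3). That of Cyp2d5 ran from −0.00258 (without hepatocyte array 2) to 0.45 (without hepatocyte array 3).

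**Figure D5:**
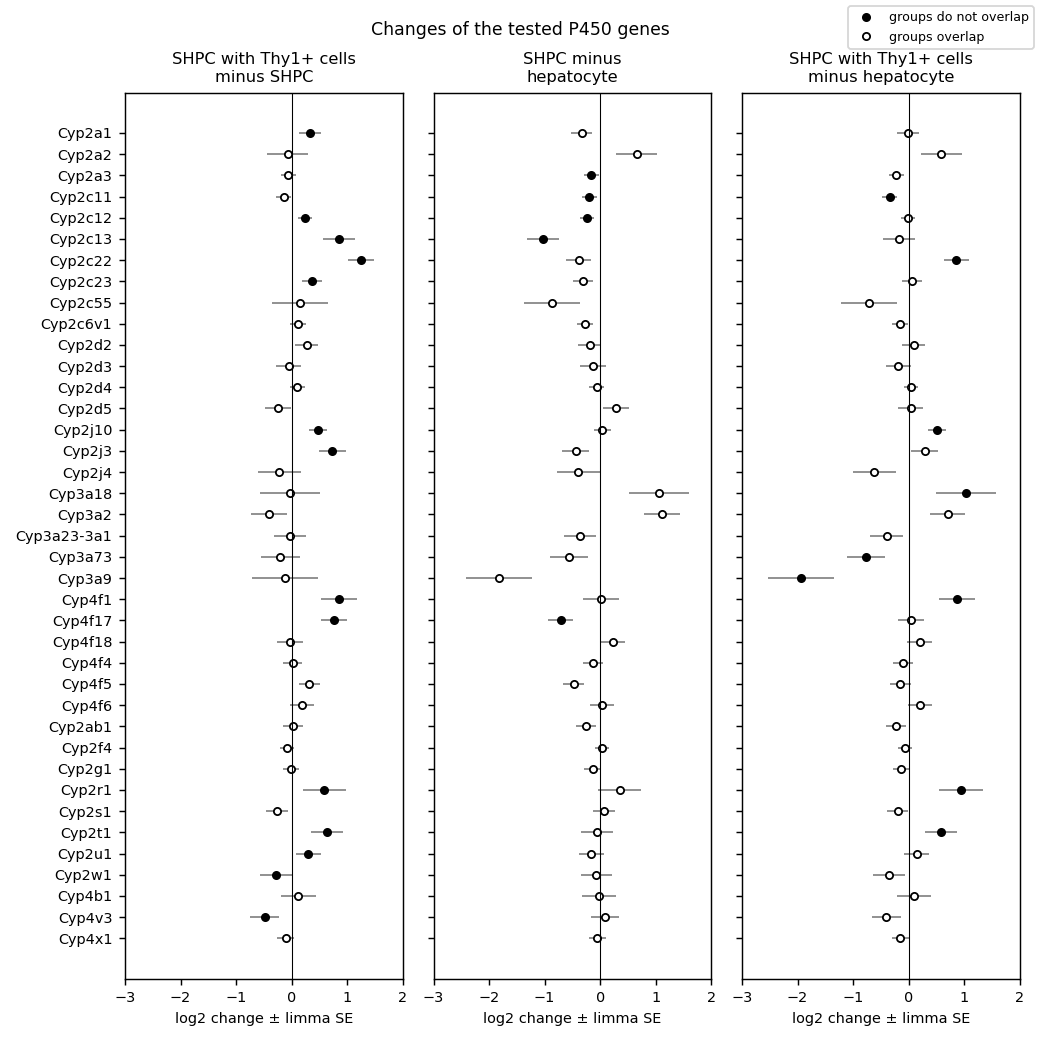
Difference of the log2 intensity with limma's SE for the 39 tested genes, in 3 panels for the 3 comparisons. Filled circles mark genes whose arrays do not overlap between the groups, which are 14, 5 and 9 genes from left to right. Cyp3a9 lies farthest left in the panels against hepatocytes.

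SHPCs of transplanted livers set against the hepatocytes of livers without transplantation differ in cell type and in transplantation at once. Cyp2c22, Cyp2j10, Cyp4f1 and Cyp2r1 were on the higher side and Cyp3a9 on the lower, but no gene passed limma's adjusted threshold. The count was 0 of 39, against 1.18% of all genes. At an unadjusted limma p under 0.05 there were 6 of 39 (15.4%), 4 higher and 2 lower, against 10.4% of all genes, 7.07% higher and 3.32% lower. Groups did not overlap for 9 of 39, 6 higher and 3 lower, against 19.2% of all genes, 12.6% higher and 6.64% lower. The median difference was −0.01, against −0.00 over all genes. Each group serves in 2 of the 3 comparisons, so their values are not separate evidence. Without hepatocyte array 2 the groups did not overlap for 6 higher and 10 lower genes (16% and 12.6% of all genes).

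Cyp3a9 had 8.13, 7.53 and 7.82 in SHPCs of transplanted livers, below the 10.06, 8.72 and 10.54 of hepatocytes on every array. The difference was −1.95 ± 0.59, 3.86-fold, with a limma adjusted p of 0.227. It passed under 4 of 20 alternative settings, among them a fit without SHPC array 2 and hepatocyte array 2 (−2.47, limma adjusted p = 0.0233). Cyp3a18 had 9.11, 9.01 and 8.88 in SHPCs of transplanted livers and 8.29, 6.81 and 8.82 in hepatocytes, a difference of 1.03 ± 0.55. The groups did not overlap, but array 3 of each nearly met, and without hepatocyte array 2 the difference was 0.45. Cyp3a73 differed by −0.77 ± 0.35, with no overlap, and Cyp3a2 by 0.70 ± 0.32, with overlap. Without hepatocyte array 2 they differed by −0.45 and 0.38.

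Cyp2c22 at 11.74, 11.81 and 11.83 in SHPCs of transplanted livers was above the 11.12, 10.89 and 10.78 of hepatocytes (0.86 ± 0.23, limma adjusted p = 0.144). It passed under 5 of 20 alternative settings. Cyp2r1 had 6.54, 6.59 and 6.71 in SHPCs of transplanted livers and 6.09, 4.69 and 6.25 in hepatocytes (0.94 ± 0.39), and the difference was 0.45 without hepatocyte array 2. Cyp2j10 differed by 0.51 ± 0.16, Cyp4f1 by 0.87 ± 0.33 and dim Cyp2c11 by −0.34 ± 0.13, each without overlap. Cyp2a3, a gene of the nasal mucosa and lung, lay between 3.33 and 3.84 on all arrays and differed by −0.22 ± 0.13, or −0.13 without array 3 of the transplanted livers.

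In this comparison 7 of 8 Kupffer cell and macrophage markers (median 0.28) and 7 of 8 stellate cell and fibroblast markers (0.37) were on the higher side in SHPCs of transplanted livers. Marco, a scavenger receptor of macrophages, had 9.26, 8.96 and 9.55 in SHPCs of transplanted livers and 8.49, 8.42 and 8.46 in hepatocytes. It rose by 0.80 ± 0.16 (limma adjusted p = 0.0456), and it passed in 1 of 9 fits without 1 array (limma adjusted p of 0.0257 without SHPC array 2, up to 0.203). Of the other lists, hepatocytes had 6 of 6 on the higher side (0.10), cholangiocytes 4 of 6 (0.38), endothelium 2 of 4 (0.11), T and NK cells 4 of 4 (0.08), B cells 0 of 3 (−0.22), neutrophils 0 of 4 (−0.24) and erythroid cells 1 of 1. The Kupffer list had 5 of 8 on the higher side without hepatocyte array 2 (0.08), and its part in the P450 differences was not tested.

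Genes that serve P450 enzymes were read beside them. Of 14 genes of electron transfer and heme metabolism, 12 were on the array and tested, and 0 passed limma's threshold in any of the 3 comparisons. SHPCs with Thy1+ cells had 11 of 12 on the higher side of SHPCs without them, with a median of 0.33, against 53% of all genes. The count was 8 of 12 and the median 0.05 once SHPC array 2 was left out. The largest difference was that of Cyb5r3, cytochrome b5 reductase, at 10.45 ± 0.10 with Thy1+ cells and 9.06 ± 0.96 without (SD, n = 3 each, limma adjusted p = 0.478), a difference of 1.39, or 0.85 without SHPC array 2. The exception over all arrays was Por, P450 oxidoreductase itself, at 8.80 ± 0.04 with Thy1+ cells and 9.07 ± 0.30 without. In SHPCs against hepatocytes, 2 of 12 were on the higher side, with a median of −0.12, against 48.6% of all genes. Without SHPC array 2 they were 8 of 12 (median 0.12), and without hepatocyte array 2 0 of 12 (median −0.39).

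Of 17 regulators of hepatic P450 genes, 15 were tested. Of these 1 passed limma's threshold, only in SHPCs of transplanted livers against hepatocytes, where 1.18% of all genes passed. With against without Thy1+ cells 10 of 15 were on the higher side (median 0.10), against 53% of all genes. They were 8 of 15 (0.01) without SHPC array 2. In SHPCs against hepatocytes 7 of 15 were on the higher side (−0.01), or 10 of 15 (0.09) without SHPC array 2. In SHPCs of transplanted livers against hepatocytes they were 8 of 15 (0.01). The gene that passed was Nr1i3, which encodes CAR, and it had 5.13 ± 0.15 in SHPCs of transplanted livers, 6.09 ± 0.58 in SHPCs without transplantation and 7.75 ± 0.39 in hepatocytes (SD, n = 3 each). It fell by 2.62 ± 0.28 in SHPCs of transplanted livers against hepatocytes (limma adjusted p = 0.00374), and it passed in all 9 fits without 1 array. SHPCs without transplantation differed from hepatocytes by −1.66 ± 0.28 (limma adjusted p = 0.114). Nr1i2, which encodes PXR, differed by −0.16 between SHPCs with and without Thy1+ cells and by 0.10 between SHPCs without them and hepatocytes. Stat5b differed by 0.63 ± 0.21 between SHPCs with and without Thy1+ cells (limma adjusted p = 0.497). Onecut1, a liver transcription factor, had 6.81 ± 0.48 with Thy1+ cells and 8.05 ± 0.28 without (limma adjusted p = 0.224).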

How the data were processed

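The deposited values are RMA-normalized intensities on a linear scale for 36685 probe sets on 9 arrays, per the submitters' processing notes, which name RMA without version or settings. No genome build is named for the array. The log2 of each deposited intensity was taken. The platform annotation gives 18511 probe sets 1 gene symbol and 575 several symbols. Probe sets with several symbols were not named, and the highest mean stood for a gene with several probe sets. The filter on dim signals asked for 3 or more of the 9 arrays above their own 25th percentile, which kept 15793 of 18166 genes.

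The 3 group means were fitted together on all 9 arrays in limma 3.58.1 (R 4.3.3), leaving 6 residual degrees of freedom. Moderated tests (eBayes) were adjusted by Benjamini-Hochberg over all tested genes, at a threshold of 0.05. The script was tested on simulated data. Precision is limited by the 3 arrays a group, and intensities carry no depth. The chosen genes, lists and tests were set with earlier results of these data known. Named genes were the 4 smallest p-values in each direction and comparison, the 6 highest means and the sex-biased genes, and others are given as ranges, as members of counts or as examples.

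Replicate numbers come from the titles. Same-number deviations correlated over 0.1 in all 3 pairs of SHPC and hepatocyte arrays (0.526, 0.705, 0.341), as did SHPC array 3 with hepatocyte array 1 (0.480) and SHPC array 1 with hepatocyte array 3 (0.237), but lay between −0.094 and 0.002 for pairs with arrays of transplanted livers. Without number 2, the difference between arrays 1 and 3 correlated at only 0.0978 between SHPCs and hepatocytes. The paired fit of these groups alone, its repeats without 1 number, and the differences and list counts without 1 array were added after seeing the data. Other alternatives changed the filter, normalization, probe set choice, variance model, array weights and arrays.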

Additional observations from a re-analysis of the deposited data

How the results depend on the processing

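Over 31 results for single genes and 645 alternative values, 620 stayed on the same side of the threshold with the same direction, 24 passed that had not, and 1 reversed (Cyp2d5 in SHPCs against hepatocytes without hepatocyte array 2, −0.00258, where the range without 1 array reached 0.45). None of the 31 passed as reported, so the same side means not passing. Other printed differences were not among the 31, and some of them changed sign without 1 array. Examples are Cyp2j4 with against without Thy1+ cells and Cyp4f1 in SHPCs against hepatocytes. Counts of the 39 genes past limma's threshold were 0 in each comparison as reported. Array quality weights, which give less weight to arrays far from their group, gave 2 for SHPCs with against without Thy1+ cells (Cyp2c13, Cyp2c22), 3 for SHPCs against hepatocytes (Cyp2c13, Cyp3a9, Cyp4f17) and 11 for SHPCs of transplanted livers against hepatocytes. The replicate block in all 9 arrays gave 1 with against without Thy1+ cells (Cyp2c22) and 1 for transplanted livers against hepatocytes (Cyp3a9). These numbers share only a name, since their arrays were not paired. The block in SHPCs and hepatocytes alone gave 3, and 0 without number 1, 2 or 3, all chosen after seeing the data. For SHPCs of transplanted livers against hepatocytes, quantile normalization again gave 1 (Cyp2c22), cyclic loess 1 (Cyp3a9), the compared groups alone 1 (Cyp2c22), and leaving out both SHPC array 2 and hepatocyte array 2 gave 2 (Cyp2j4, Cyp3a9). Leaving out 1 array at a time gave 0 to 1 with against without Thy1+ cells (1 without SHPC array 1), and 0 to 1 for transplanted livers against hepatocytes (1 without SHPC array 1 or 2, where fewer arrays set the spread). The median with against without Thy1+ cells lay between 0.022 and 0.21 in these fits, the highest without SHPC array 3. The causes of the other changes were not tested.

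Counts over all genes moved more: for SHPCs of transplanted livers against hepatocytes 186 genes passed, against 2685 with array weights, 31 to 472 without 1 array and 47 with each array centred on its median. For SHPCs with against without Thy1+ cells the count was 1, against 259 with array weights, 64 with the replicate block and 0 to 24 without 1 array. For SHPCs against hepatocytes it was 10, against 375 with array weights, 35 with the replicate block and 0 to 53 without 1 array. Centring each array on its median moved the median of all genes to 0.12 for SHPCs with against without Thy1+ cells.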
